A study of Mus musculus with 4 samples.

Results

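The venous endothelial cells described here were selected on their own transcripts from 4 single-cell libraries of the mouse aorta-gonad-mesonephros region (AGM), the trunk tissue around the dorsal aorta where blood stem cells arise. A cell was called endothelial when it carried no Ptprc UMI (a unique molecular identifier, counting 1 captured transcript), at least 3 of the 6 genes Cdh5, Pecam1, Tie1, Egfl7, Kdr and Esam, and at least 8 UMIs of those genes per 10000. It was called venous when Nr2f2, Aplnr and Ephb4 together gave at least 2 UMIs and fewer than 2 of the 6 arterial genes Gja4, Gja5, Sox17, Unc5b, Hey2 and Dll4 were detected. Cells with at least 2 UMIs of Prox1 or of Runx1, at least 2 of Tll1, Flrt2, Adgrg6 and Lhx6, or at least 2 of Apcdd1, Foxq1 and Lef1 were left out. The rule took 3374 venous cells out of 17003 endothelial cells and 44168 retained cells. All but 4 of them lay in the MMPlow libraries, with 1522 in MMPlow 1 and 1848 in MMPlow 2, against 1 in MMPhigh 1 and 3 in MMPhigh 2.

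The embryos were C57BL/6J mice at E11.5 (days of embryonic development), and no treatment or further allele is named in the labels. Freshly sorted CD31-positive cells were divided by the fluorescence of TMRM, a dye drawn into mitochondria by their membrane potential, into a low (MMPlow) and a high (MMPhigh) fraction with 2 libraries each. Whether the libraries came from separate pools of embryos is not given in the sources used here, so p-values measure only the spread between these samples, which may be technical. CD31 is the product of Pecam1, a gene of endothelium and of some blood cells. Of the retained cells 7769 of 16700 and 9171 of 19579 were endothelial in the MMPlow libraries, and 44 of 4403 and 19 of 3486 in the MMPhigh libraries. Lanes were loaded for at most 10000 cells, while the libraries held 59928, 23715, 13939 and 4288 barcodes, and MMPhigh 2 stood apart with a median of 24044.5 UMIs per retained cell against 3145 to 3741 in the other 3. Between 7 and 89 barcode sequences were shared by pairs of libraries among retained cells, and 1 venous barcode sequence was shared, by MMPlow 1 and MMPlow 2.

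Veins and arteries are lined by endothelium that takes on separate identities before and with the onset of flow. Nr2f2 encodes COUP-TFII, a nuclear receptor that maintains venous identity and holds down Notch signalling. Ephb4 encodes the receptor for the arterial ligand ephrin-B2, and Aplnr the receptor for apelin, which is enriched in embryonic veins. Notch signalling with its ligands Dll4, Jag1 and Jag2 and its Hey targets promotes the arterial fate, lymphatic endothelium arises largely from veins under Prox1, and sinusoids are wide, leaky capillaries whose endothelium carries scavenger receptors such as Stab2.

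The genes that chose the cells are given as a description, with no test. Levels are in CPM, the UMIs of a gene per 1000000 UMIs summed over all cells of a class in a library. Pairs of values stand for MMPlow 1 and MMPlow 2, in that order. Nr2f2 stood at 200.4 and 198.3 CPM in venous cells, beside 29.3 and 26.6 in arterial cells (at least 2 of the 6 arterial genes, fewer than 2 venous UMIs). Aplnr stood at 283.9 and 256.9 CPM in venous cells and at 39.4 and 33.3 in arterial cells. Ephb4 gave 159.7 and 153.2 CPM against 50.1 and 40.0. Gja4, an arterial connexin, was at 7.60 and 7.998 CPM in venous cells and at 317.0 and 284 in arterial cells.

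Across the 8 endothelial classes the 3 venous genes did not follow 1 order. Nr2f2 was as high in Tll1-type cells (at least 2 of Tll1, Flrt2, Adgrg6 and Lhx6), with 188.1 and 203.3 CPM, as in venous cells, and these classes overlapped. Prox1-positive cells came close below, with 183.7 and 197.6 CPM, and overlapped Tll1-type but not venous cells. Cells meeting both the venous and the arterial condition followed with 146.9 and 156.6 CPM. Wnt-type cells (at least 2 of Apcdd1, Foxq1 and Lef1) had 72.1 and 86.3 CPM and Runx1-positive cells 55.3 and 59.98. Aplnr was highest in venous cells, next in the cells of both conditions and in Tll1-type cells, which overlapped, and low in Prox1-positive cells at 49.5 and 64.1 CPM. Ephb4 stood at 159.7 and 153.2 CPM in venous cells and at 160.0 and 160.4 in the cells of both conditions. The rule cut on these genes, so their levels are a description. The plot of levels by class sets these genes beside 5 genes the rule did not use.

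**Figure D1:**
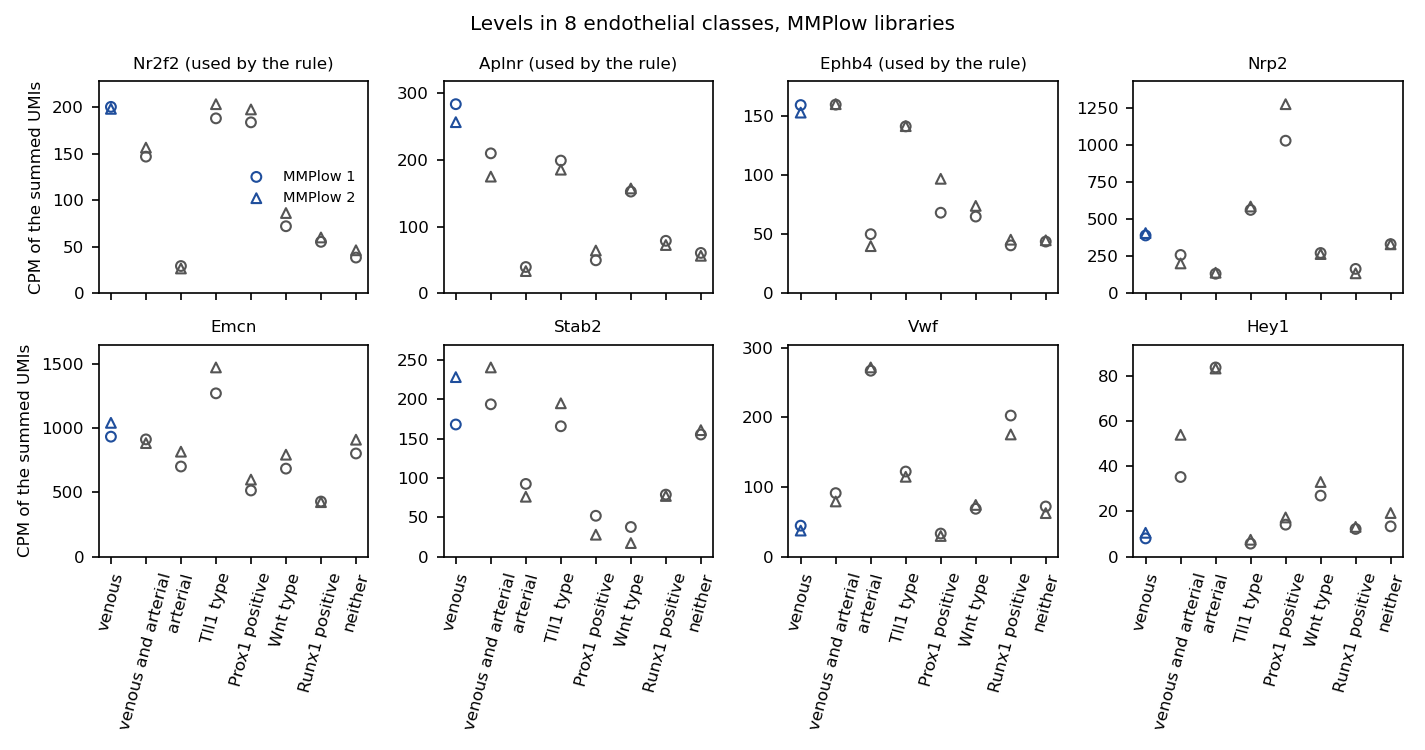
Levels in CPM of Nr2f2, Aplnr and Ephb4, which chose the cells, and of Nrp2, Emcn, Stab2, Vwf and Hey1, which did not, in 8 endothelial classes; each point is 1 MMPlow library. Nr2f2 is near 200 CPM in venous, Tll1-type and Prox1-positive cells, while Nrp2 runs from 131.8 CPM in arterial to 1275.9 CPM in Prox1-positive cells.

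Single venous cells carried few UMIs of the genes that chose them. In MMPlow 1, 765 of 1522 cells (50.3%) had exactly 2 venous UMIs, and in MMPlow 2, 848 of 1848 (45.9%), while the highest sums were 11 and 14. All 3 genes were detected together in 203 and 287 cells. A single venous gene was detected in 114 and 145 cells for Nr2f2, in 201 and 229 for Aplnr, and in 81 and 98 for Ephb4. One arterial gene of the rule was detected in 487 cells (32.0%) of MMPlow 1 and 702 (38.0%) of MMPlow 2. Cells just inside the boundary of the rule, with exactly 2 venous UMIs, had Nrp2 at 370.3 and 396.5 CPM and Emcn at 926.8 and 1015.5, and cells just outside, with 1 venous UMI, had Nrp2 at 368.6 and 361.0 and Emcn at 850.5 and 979.7. Stab2 stood at 169.3 and 235.8 CPM inside and at 181.1 and 167.3 outside, with the higher side differing between the libraries. The cells outside were shallower, with medians of 2960 and 3227.5 UMIs against 3423 and 3665.5 inside.

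The first comparison the sort implies is how many venous cells each fraction held. Venous cells made up 9.11% of retained cells in MMPlow 1 (exact binomial 95% interval 8.68 to 9.56) and 9.44% in MMPlow 2 (9.03 to 9.86). In MMPhigh 1 they were 1 of 4403 cells, or 0.0227% (0.000575 to 0.126), and in MMPhigh 2 they were 3 of 3486, or 0.0861% (0.0178 to 0.251). These intervals cover counting error only. The MMPlow mean was 9.28% ± 0.230 (SD, n = 2), the MMPhigh mean was 0.0544% ± 0.0448 (SD, n = 2), and both MMPlow libraries lay above both MMPhigh libraries. The exact two-sided permutation test gave p = 0.3333, the smallest p that 2 libraries against 2 allow. The shares are those of sorted fractions, and the part of the sort gates in them was not tested. The MMPlow mean was 4.82% with at least 3 venous UMIs asked for and 4.74% when cells were thinned to 2000 UMIs before the rule, against 0.0430% and 0.0741% in MMPhigh.

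Among endothelial cells the venous share was 19.6% and 20.2% in MMPlow, 2.27% in MMPhigh 1 (1 of 44 cells, exact binomial 95% interval 0.0575 to 12.02) and 15.8% in MMPhigh 2 (3 of 19 cells, 3.38 to 39.6). The exact two-sided permutation test again gave p = 0.3333. When every cell was thinned to 2000 UMIs before the rule was applied, the 4 shares were 13.4%, 13.1%, 14.3% (4 of 28 cells) and 13.3% (2 of 15 cells), so the difference turned from -10.8 to 0.549 percentage points. Thinning also lowered the number of cells counted as endothelial, from 7769 to 6040 in MMPlow 1 and from 44 to 28 in MMPhigh 1. The venous count of MMPhigh 1 rose from 1 to 4, so the rule after thinning took in cells that it had not taken before. With at least 3 venous UMIs the difference was -2.43 points, with an exact two-sided permutation p of 1.0.

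The 4 venous cells of MMPhigh allowed values and no test. The single cell of MMPhigh 1 held 2314 UMIs, with 1 of Aplnr, 1 of Ephb4 and 2 of Plvap, which encodes the protein of endothelial diaphragms. The 3 cells of MMPhigh 2 held 23534 UMIs in all, with 5 of Nr2f2, 7 of Aplnr and none of Ephb4. Their Emcn level, from 22 UMIs, was 934.8 CPM (exact Poisson 95% interval 585.8 to 1415.3), an interval that takes in the 932.1 and 1039.5 CPM of the MMPlow venous cells. Nrp2 gave 2 UMIs, or 85.0 CPM (10.3 to 307.0), below the MMPlow values of 390.0 and 406.0. These intervals cover counting error only. The cell of MMPhigh 1 held 0 UMIs of Emcn and of Nrp2, each with an interval of 0 to 1594.2 CPM. The 13 protein genes encoded by mitochondrial DNA took a median share of UMIs of 3.02% and 3.70% in the venous cells of MMPlow, 4.71% in the single cell of MMPhigh 1 and 6.87% over the 3 cells of MMPhigh 2.

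The second comparison set venous against arterial endothelium within the MMPlow libraries, on genes outside the rule. Venous cells had more transcript than arterial cells of the co-receptor gene Nrp2 and of a small set of sinusoidal genes, and less of almost every arterial gene on the list. UMIs were summed per class and library and tested with edgeR's quasi-likelihood test with the library as a block and Benjamini-Hochberg adjustment over all 13104 tested genes, and a gene was called at an adjusted p under 0.05. Of those genes 1484 (11.3%) were higher and 1749 (13.3%) lower in venous cells, with a median log2 fold of -0.02 over all genes tested. Of the genes called at a log2 fold of at least 1, with a mean of at least 20 CPM in the higher class and the same direction in both libraries, 24 were higher and 177 lower.

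Nrp2, which encodes a co-receptor for VEGF-C and for class 3 semaphorins, stood at 390.0 and 406.0 CPM in venous and at 131.8 and 138.4 CPM in arterial cells, a log2 fold of 1.56 ± 0.08 (SE) with an adjusted p by edgeR of 3.18e-22. Emcn, the sialomucin endomucin of veins and capillaries, stood at 932.1 and 1039.5 CPM against 699.9 and 815.3, a log2 fold of 0.39 ± 0.06 (SE) with an adjusted p by edgeR of 4.12e-08. For both genes the lower venous library was above the higher arterial one, but over all 13104 genes tested 55.4% had no overlap between these classes. Other members of the vein list went the other way. Vwf, von Willebrand factor, stood at 44.3 and 37.3 CPM in venous cells against 266.9 and 271.6 in arterial cells, a log2 fold of -2.73 ± 0.08 (SE) with an adjusted p by edgeR of 2.4e-48. Smad6, an inhibitor of BMP signalling, was at 25.1 and 33.0 CPM against 145.3 and 111.8, a log2 fold of -2.07 ± 0.13 (SE) with an adjusted p by edgeR of 3.34e-14. Of the 18 vein or post-capillary genes tested, 5 were higher and 4 lower, with a median log2 fold of -0.01.

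The sinusoidal and scavenger list moved further. Of its 11 tested genes 7 were higher in venous cells and 1 lower, with a median log2 fold of 0.87. The list was chosen with earlier results of these data known, so its count is a description. Stab2, a scavenger receptor for hyaluronan, was at 168.0 and 228.3 CPM against 92.3 and 76.1, a log2 fold of 1.29 ± 0.23 (SE) with an adjusted p by edgeR of 0.00482. Gata4, a transcription factor needed for liver sinusoids, was at 28.8 and 33.0 CPM against 11.8 and 10.9, a log2 fold of 1.49 ± 0.21 (SE) with an adjusted p by edgeR of 3.13e-08. Oit3, a secreted protein known from liver sinusoidal endothelium, was at 23.8 and 26.7 CPM against 7.88 and 10.9, a log2 fold of 1.41 ± 0.23 (SE). In each of these 3 genes the venous libraries lay above the arterial ones, where 55.4% of all genes tested were without overlap, higher or lower. These genes were not particular to venous cells. Cells of both conditions had Stab2 at 193.6 and 240.6 CPM, Gata4 at 32.0 and 42.5 and Oit3 at 19.7 and 36.5. Cells meeting neither condition had Stab2 at 155.2 and 160.8 CPM. Mrc1, the mannose receptor, and Maf followed with log2 folds of 0.47 and 0.52, calls that were lost when every cell was thinned to 2000 UMIs. Gpihbp1, which carries lipoprotein lipase across capillary endothelium, was the member that was lower, at a log2 fold of -0.95.

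The other genes named by size of fold among those higher in venous cells were Ednrb, Lbp, St8sia1, Egfem1, Pip5k1b, Rsad2 and Col25a1, with log2 folds of 1.21 to 1.38. Ednrb, an endothelin receptor, stood at 55.7 and 54.6 CPM against 20.3 and 22.1. St8sia1, a sialyltransferase of ganglioside synthesis, stood at 48.5 and 50.8 CPM against 20.3 and 19.98. The calls for Egfem1, Rsad2 and Col25a1 were lost when only cells with 3000 to 6000 UMIs were used, and that for Col25a1 also without likely doublets and without cells carrying a mesenchymal UMI. Apln, the ligand of the receptor that helped choose the cells, was at 20.5 and 20.7 CPM against 9.57 and 14.0, a log2 fold of 0.77 ± 0.21 (SE) with an adjusted p by edgeR of 0.00303.

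Arterial genes outside the rule fell together. Of 27 tested, none was higher and 26 were lower in venous cells, with a median log2 fold of -1.95. The classes were cut on arterial and on venous genes, so genes expressed together with either tend to differ by the selection itself. The p-values of arterial genes, of vein genes and of Apln, here, above and below, are therefore no independent support for the classes. The same holds below for genes expressed together with the rule genes that cut the other classes and sets. The count in cells of 3000 to 6000 UMIs, an alternative chosen after seeing the data, was 26 of 26, beside 751 lower of all 11442 genes tested. Bmx, a cytoplasmic tyrosine kinase of arterial endothelium, was at 2.01 and 1.26 CPM in venous cells against 42.8 and 43.1, a log2 fold of -4.73 ± 0.25 (SE) with an adjusted p by edgeR of 7.2e-30, which was -4.07 without MMPlow 2. Folds given without a library, here and below, are not edgeR fits. They are differences of log2 CPM with a small count added, so part of a change can come from the estimate. Dkk2, a modulator of Wnt signalling, was at 5.02 and 7.05 CPM against 85.6 and 110.1, a log2 fold of -4.00 ± 0.15 (SE). Sox6, a transcription factor gene, was at 23.4 and 20.2 CPM against 300.7 and 291.3, a log2 fold of -3.76 ± 0.12 (SE). The remaining genes named by size of fold, which included the laminin gene Lama3, the semaphorin gene Sema7a, the cAMP phosphodiesterase gene Pde3a and the TGF-beta binding gene Ltbp4 beside Tmem100, Slc45a4, Prdm16 and Ptchd1, had log2 folds of -4.56 to -3.18. Mecom, a transcription factor gene of arterial and blood-forming endothelium, was at 362.8 and 381.8 CPM against 1447.2 and 1518.0, a log2 fold of -1.98 ± 0.06 (SE).

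**Figure D2:**
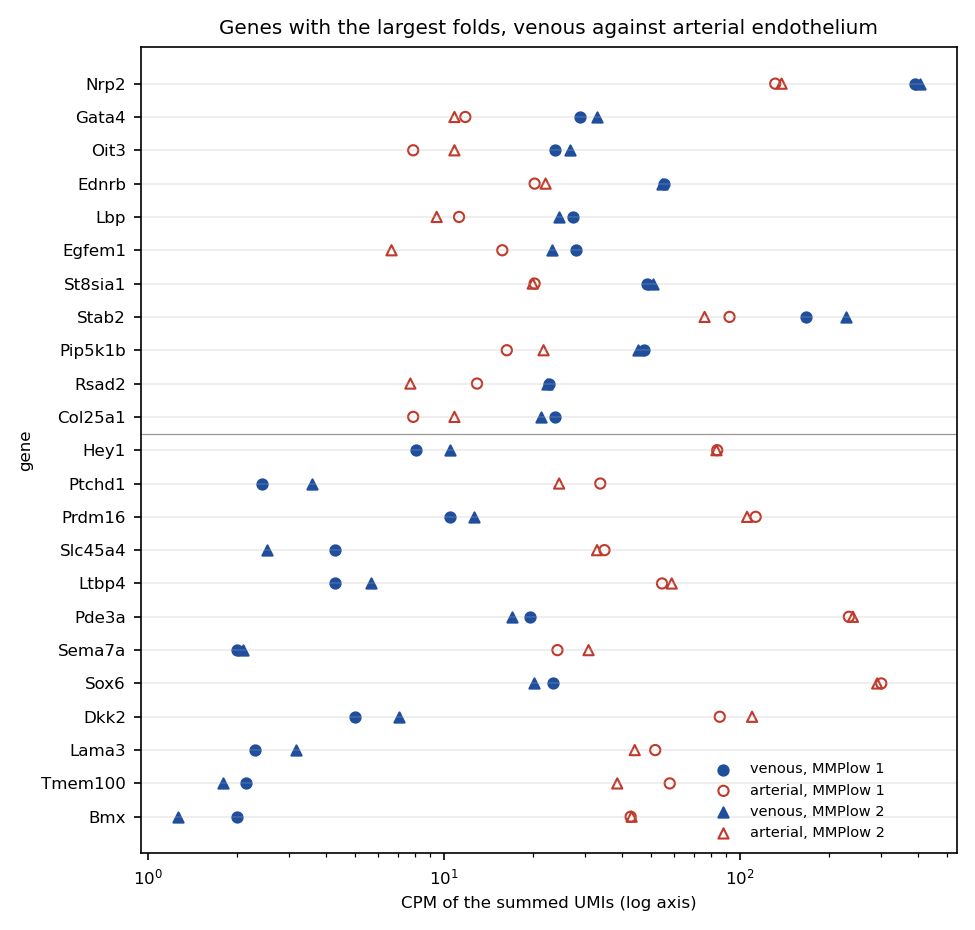
Levels in CPM, on a log axis, of 23 genes outside the rule in venous and arterial endothelium; each point is 1 MMPlow library. Nrp2, Gata4 and Stab2 lie higher in venous cells, and Bmx, Dkk2, Sox6 and Hey1 lie lower by log2 folds of -4.73 to -3.13.

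Of 19 tested Notch genes 8 were lower in venous cells, 1 was higher and 10 did not pass the test, with a median log2 fold of -0.19. The ligand genes Jag1 and Jag2 had log2 folds of -1.95 and -1.84, from 17.6 and 17.9 CPM against 71.5 and 68.0 for Jag1. The receptor genes Notch1 and Notch4 had smaller differences of -0.95 and -1.09. The target Hey1 stood at 8.03 and 10.52 CPM in venous cells and at 83.9 and 83.4 in arterial cells, a log2 fold of -3.13 ± 0.14 (SE) with an adjusted p by edgeR of 2.67e-35. Efnb2, which encodes the ephrin-B2 ligand of the EphB4 receptor, was at 127.1 and 128.7 CPM against 408.2 and 418.1, a log2 fold of -1.68 ± 0.07 (SE) with an adjusted p by edgeR of 2.95e-30.

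In the VEGF and angiopoietin list of 13 tested genes, 2 were higher and 5 lower. The ligand gene Vegfc stood at 48.8 and 62.7 CPM in venous cells and at 390.2 and 438.5 in arterial cells, a log2 fold of -2.88 ± 0.07 (SE) with an adjusted p by edgeR of 5.64e-54, the opposite side from its co-receptor gene Nrp2. Nrp1, which encodes the other neuropilin, was at 439 and 488 CPM against 992.2 and 1116.3, a log2 fold of -1.18 ± 0.06 (SE) with an adjusted p by edgeR of 5.64e-33. The neuropilin genes thus lay on opposite sides of the comparison in both libraries. Flt1, a VEGF receptor that acts largely as a decoy, had a log2 fold of -0.54, and Tek, the angiopoietin receptor, one of 0.31. Of 23 BMP and TGF-beta genes 4 were higher and 12 lower, including the target Id1 and the ligand Tgfb2 at -0.88 each.

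Of 20 basement membrane and matrix genes 2 were higher and 13 lower, with a median log2 fold of -0.53. The collagen genes Col4a1, Col4a2 and Col18a1 had log2 folds of -0.55, -0.69 and -0.86, and Col4a1 stood at 904 and 899 CPM against 1352.0 and 1318.2. Flow-responsive genes were lower in 6 of 13 cases and higher in none, and in 3 without the library block, where 1126 of all 13104 genes tested were lower. Among them Edn1, endothelin, had a log2 fold of -2.02, the caveolar gene Cav1 one of -0.96 and Nos3, the endothelial nitric oxide synthase, one of -0.47. Klf2, a transcription factor induced by shear stress, had -0.32 (edgeR adjusted p 0.02), a call that 5 alternatives ended: no library block, DESeq2, no filter on low genes, at least 3 venous UMIs, and thinning.

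Genes of the cell cycle were higher in venous cells. Of 25 tested S phase genes 22 were higher and none lower, with a median log2 fold of 0.43, and of 26 G2 and M phase genes all 26 were higher, with a median of 0.50. Ccnd1, cyclin D1, stood at 230.1 and 232.7 CPM against 102.5 and 102.3, a log2 fold of 1.19 ± 0.08 (SE) with an adjusted p by edgeR of 4.58e-23. Birc5, a mitotic regulator, had a log2 fold of 0.60 and Tyms, thymidylate synthase, one of 0.50. Venous cells were also deeper, with medians of 4010.5 and 4319.5 UMIs against 3258 and 3703.5 in arterial cells. In cells of 3000 to 6000 UMIs of both classes 12 S phase genes (median 0.44) and 21 G2 and M phase genes (median 0.56) were called, all higher. Over all 11442 genes tested there, 442 were higher and 751 lower.

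Metabolic lists moved less. Of 19 glycolysis genes 7 were higher and 2 lower in venous cells, and 2 and 2 in cells of 3000 to 6000 UMIs. In those cells 442 of all 11442 genes tested were higher and 751 lower. Gapdh, at 702.3 and 764 CPM against 537.2 and 582, had a log2 fold of 0.40, and Ldha one of 0.36, calls that were lost in those cells, while the glucose transporter gene Slc2a1 had -0.64. Of 20 tricarboxylic acid cycle genes 6 were higher and none lower. Of the 13 mitochondrially encoded genes 5 were lower and none higher, with a median log2 fold of -0.15.

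RNA typical of other cells moved in part with this comparison. Over all 13104 genes tested 13.3% were lower in venous cells, and counts near that share say nothing particular about the markers. Summed over 14 myeloid markers the level was 526.7 to 534.9 CPM in venous and 644.9 to 723.6 in arterial cells, with 6 of 14 called lower. The 11 neural markers summed to 258.8 to 270.8 CPM against 406.9 to 430.8, and Stmn2, a neuronal tubulin regulator, was the 1 of 7 tested that was called, at a log2 fold of -1.69. The 13 mesenchymal markers summed to 111.6 to 122.2 CPM against 121.6 to 142.3, with 2 of 11 tested called lower. Epithelial markers summed to 13.3 to 15.6 CPM against 16.3 to 25.2, with 0 of 6 tested called. The 10 megakaryocyte markers summed to 627.1 to 655.0 CPM against 736.0 to 755.1, with 2 of 10 called lower, and the 10 muscle markers to 38.6 to 53.8 CPM against 61.0 to 68.7, with 1 of 4 tested called lower. The sums of erythroid markers overlapped between the classes, with 1 of 10 tested called lower. Hepatocyte markers summed to 29.1 to 31.7 CPM against 33.3 to 41.7 with none of 3 tested called. The germ cell marker Dazl and the epithelial marker Cdh16 were at 0 UMIs in both venous sums. Their part in the differences was not tested.

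**Figure D3:**
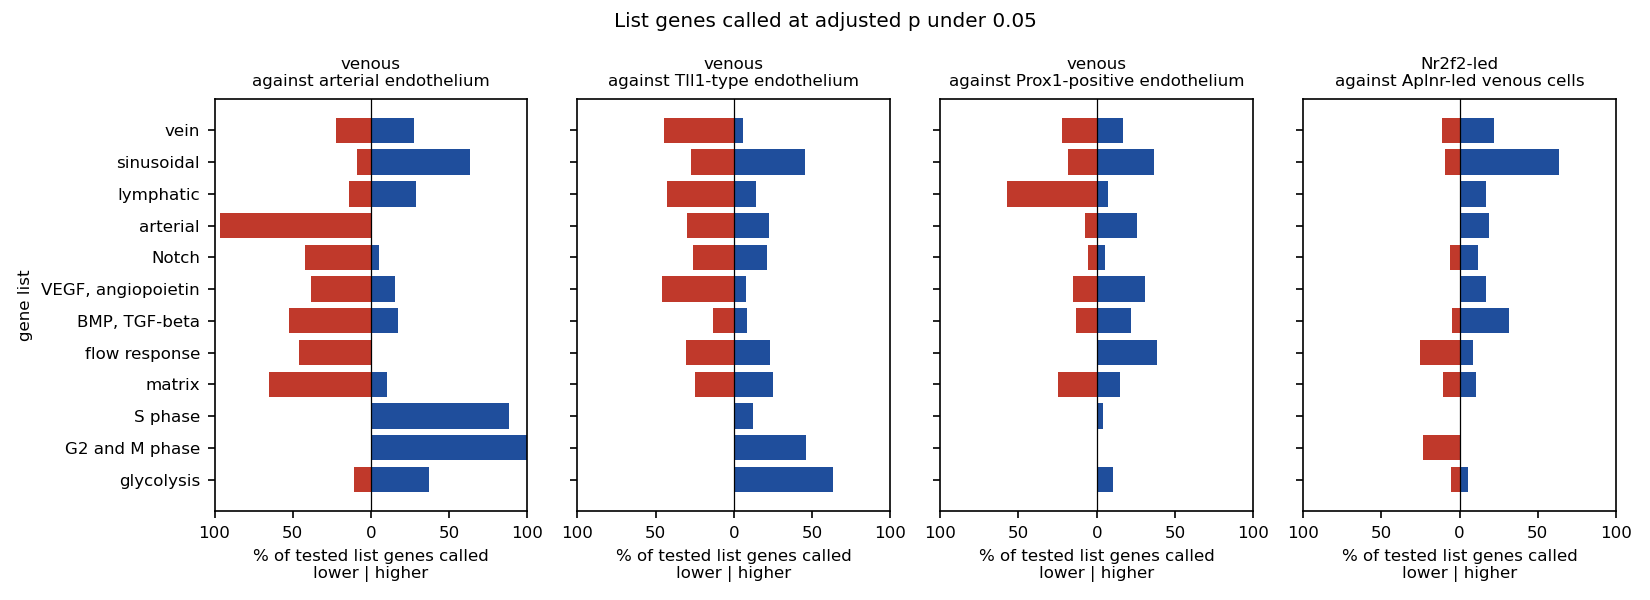
Percent of the tested genes of 12 lists that were called lower (left) or higher (right) in 4 comparisons by edgeR at an adjusted p under 0.05. The arterial list is nearly all lower and the G2 and M phase list all higher in venous against arterial cells, and the sinusoidal list is higher in 7 of 11 genes in Nr2f2-led against Aplnr-led venous cells.

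The third comparison was with Tll1-type endothelium, the most numerous class of named type with 3820 cells, which shares the level of Nr2f2 with venous cells. Here 1096 of 13104 genes (8.36%) were higher and 1149 (8.77%) lower in venous cells, with a median log2 fold of -0.01. Few differences were large, since the rule for named genes took 6 higher and 51 lower. Median depths were 3797.5 and 4411 UMIs in Tll1-type cells. The venous sums here and against Prox1-positive cells are those already set against arterial cells, so these comparisons share them. Summed muscle markers were at 38.6 to 53.8 CPM in venous and 76.6 to 99.3 in Tll1-type cells, with 1 of 4 tested called lower, and epithelial markers at 13.3 to 15.6 CPM against 18.7 to 21.2, with 0 of 6 called. Of the neural markers 1 was higher and 1 lower of 7, of the megakaryocyte markers 1 was higher of 10, and 0 of 14 myeloid and 0 of 11 mesenchymal markers were called. Their part in the differences was not tested.

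Genes higher in venous than in Tll1-type cells began with Oit3, at 23.8 and 26.7 CPM against 7.92 and 10.48, a log2 fold of 1.47 ± 0.15 (SE) with an adjusted p by edgeR of 1.91e-11. Kcne3, a potassium channel subunit, was at 38.7 and 36.3 CPM against 12.7 and 15.0, a log2 fold of 1.45 ± 0.11 (SE). Ehd3, an endosomal trafficking protein, was at 35.3 and 35.8 CPM against 12.2 and 16.4, a log2 fold of 1.32 ± 0.12 (SE). All 3 were higher in each venous library than in either Tll1-type library, where 48.6% of all genes tested were without overlap, higher or lower. Prdm1, Nr5a2 and Vwa1 had log2 folds of 1.05 to 1.15. Of 19 glycolysis genes 12 were higher and none lower, with a median log2 fold of 0.31, and 6 were higher without the library block and 7 in cells of 3000 to 6000 UMIs. Over all genes tested, 191 of 13104 were higher without the block and 278 of 11442 in cells of 3000 to 6000 UMIs. Pkm, pyruvate kinase, stood at 617 and 578 CPM against 479 and 463.9, a log2 fold of 0.37 ± 0.06 (SE) with an adjusted p by edgeR of 1.87e-07. For G2 and M phase genes the count was 12 of 26 higher, 3 without the block and 5 in cells of 3000 to 6000 UMIs.

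Known vein genes were more often lower than higher in venous cells against this class, with 8 lower and 1 higher of 18 and a median log2 fold of -0.26. Slit3, a guidance ligand, stood at 70.7 and 49.5 CPM in venous cells against 228.1 and 223.2 in Tll1-type cells, a log2 fold of -1.90 ± 0.10 (SE) with an adjusted p by edgeR of 1.26e-10. Vwf was at 44.3 and 37.3 CPM against 122.1 and 114.5, a log2 fold of -1.51 ± 0.07 (SE). Bmp4, a BMP ligand, was at 21.8 and 15.8 CPM against 47.5 and 51.1, a log2 fold of -1.40 ± 0.11 (SE). Nrp2 and Emcn, both higher in venous than in arterial cells, were lower here, at log2 folds of -0.49 and -0.44, with Emcn at 1269.0 and 1470.4 CPM in Tll1-type cells. The angiopoietin receptor gene Tek was lower at -0.55 and the clathrin adaptor gene Dab2 at -0.81.

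The metalloprotease gene Adamts18 had the largest fold, at 7.03 and 4.10 CPM against 40.6 and 36.0, a log2 fold of -2.79 ± 0.17 (SE) with an adjusted p by edgeR of 1.14e-21. Egfem1, which was higher in venous than in arterial cells, was at 28.0 and 23.2 CPM against 119 and 135, a log2 fold of -2.30 ± 0.11 (SE). The kinase gene Pak7, Ccdc3 and the synaptic adhesion gene Nlgn1 had log2 folds of -2.18, -2.02 and -1.85. The retinoic acid receptor gene Rarb was lower at -0.91. Sinusoidal genes were mixed, with 5 higher and 3 lower of 11. Gata4 had a log2 fold of 0.81 and Mrc1 one of 0.63. Stab2 did not pass the test, at 168.0 and 228.3 CPM against 165.7 and 194.9, a log2 fold of 0.17 ± 0.16 (SE) with an adjusted p by edgeR of 0.558. The calls for Stab1 (-0.23) and Maf (0.27) were lost without the library block, with DESeq2 and in cells of 3000 to 6000 UMIs.

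The fourth comparison was with Prox1-positive endothelium, the lymphatic type, of which the MMPlow libraries held 81 and 109 cells. Of 13104 genes 396 (3.02%) were higher and 434 (3.31%) lower in venous cells, with a median log2 fold of 0.03. Lymphatic genes were lower in 8 and higher in 1 of 14 tested, with a median log2 fold of -0.93. The classes were cut on Prox1, so genes expressed together with it tend to differ by the selection itself. The p-values of lymphatic genes are therefore no independent support for the Prox1-positive class. Reln, a secreted glycoprotein of lymphatic endothelium, stood at 1.86 and 3.37 CPM in venous cells and at 66.0 and 159.5 in Prox1-positive cells, a log2 fold of -5.39 ± 0.29 (SE) with an adjusted p by edgeR of 3.25e-27 that was -4.77 without MMPlow 2. Pld5 was at 15.8 and 17.0 CPM against 223.8 and 306.8, a log2 fold of -4.00 ± 0.15 (SE) with an adjusted p by edgeR of 4.13e-35. Nts, neurotensin, was at 3.44 and 6.21 CPM against 98.9 and 58.9, a log2 fold of -3.91 that was -3.12 without MMPlow 1 and -4.62 without MMPlow 2. Pdpn, podoplanin, was at 1.15 and 2.105 CPM against 18.8 and 17.3, a log2 fold of -3.36 ± 0.57 (SE). Lyve1, also on the lymphatic list, did not follow them. It was at 35.1 and 27.5 CPM in venous cells against 2.36 (1 UMI) and 36.4, with the higher side differing between the libraries.

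Receptors divided between the classes. Nrp2 stood at 1029.5 and 1275.9 CPM in Prox1-positive cells, above the 390.0 and 406.0 of venous cells, a log2 fold of -1.52 ± 0.08 (SE) with an adjusted p by edgeR of 5.86e-22. Flt4, the VEGF-C receptor VEGFR3, was at 110.3 and 113.3 CPM in venous cells against 254.4 and 277.4, a log2 fold of -1.23 ± 0.11 (SE). Flt1 was at 724 and 719 CPM against 292.1 and 315.5, a log2 fold of 1.27 ± 0.09 (SE) with an adjusted p by edgeR of 1.72e-20. Nrp1 was at 439 and 488 CPM against 200.2 and 164.7, a log2 fold of 1.40 ± 0.11 (SE), and Tek had a log2 fold of 1.19. Both venous libraries were below both Prox1-positive ones in Nrp2 and Flt4 and above them in Flt1 and Nrp1, where 47.2% of all genes tested were without overlap, higher or lower. Emcn and Plvap were higher in venous cells, at log2 folds of 0.85 and 0.64, and the ephrin receptor gene Ephb1 was lower at -2.72.

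Sinusoidal genes were 4 higher and 2 lower of 11, and 2 higher and 1 lower in cells of 3000 to 6000 UMIs. In those cells 205 of all 11442 genes tested were higher and 320 lower. Stab2 was at 168.0 and 228.3 CPM in venous cells against 51.8 and 27.7, a log2 fold of 2.43 ± 0.49 (SE) with an adjusted p by edgeR of 0.0283 that was 3.07 without MMPlow 1 and 1.72 without MMPlow 2. Its relative Stab1 was on the other side, at 149 and 131 CPM against 278 and 374, a log2 fold of -1.23 ± 0.10 (SE). Oit3 rested on 4 UMIs in Prox1-positive cells, all in MMPlow 1, and the ratio of pooled CPM was 6.38 (exact 95% counting interval 2.47 to 23.5). Its fitted log2 fold of 2.69 was 1.33 without MMPlow 2 and 6.13 without MMPlow 1. The latter leaves 0 UMIs in Prox1-positive cells, so the added count sets its size. The call for Oit3 was lost in cells of 3000 to 6000 UMIs. Mrc1 had a log2 fold of 1.18 that was 1.85 without MMPlow 1 and 0.57 without MMPlow 2, and Gata4 one of 1.82 that was 2.63 and 1.04. Thinning ended both calls, and that of Mrc1 was also lost in cells of 3000 to 6000 UMIs. Entpd1, an ectonucleotidase, was at 60.4 and 59.9 CPM against 7.07 and 10.4, a log2 fold of 2.77 ± 0.33 (SE) with an adjusted p by edgeR of 1.95e-10. The pooled ratio of Hs6st3 was 4.87 (2.07 to 15.1) and that of Vwa1 4.44 (1.88 to 13.7), each from 5 UMIs in Prox1-positive cells. The fitted log2 fold of Vwa1, 2.17, was 1.34 without MMPlow 1 and 5.51 without MMPlow 2. The latter leaves 0 UMIs in Prox1-positive cells, so the added count sets its size. The calls for Hs6st3, Vwa1 and Palmd (log2 fold 2.54) were lost on thinning. Those for Hs6st3 and Vwa1 were also lost in cells of 3000 to 6000 UMIs. That for Hs6st3 was lost without the library block too, and that for Vwa1 in cells with no mesenchymal UMI. Of 25 S phase genes 1 and of 26 G2 and M phase genes none passed the test. Summed neural markers were at 464.1 and 258.3 CPM in Prox1-positive cells and at 258.8 and 270.8 in venous cells. The Prox1-positive sum was thus the higher one in MMPlow 1 and the lower one in MMPlow 2. Of 7 neural markers tested, 4 were lower and 2 higher in venous cells. Epithelial markers summed to 39.9 to 87.2 CPM in Prox1-positive and 13.3 to 15.6 in venous cells, with 2 of 6 lower in venous cells. Mesenchymal markers were at 66.0 to 81.5 CPM against 111.6 to 122.2, with 1 of 11 higher in venous cells, muscle markers at 21.2 to 27.7 against 38.6 to 53.8, with 0 of 4 called, and megakaryocyte markers at 582.5 to 586.6 against 627.1 to 655.0, with 2 of 10 higher. The sums of erythroid markers were at 104.0 to 134.3 against 155.9 to 209.4 CPM, with 0 of 10 called. The part of these markers was not tested.

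The last comparison asked how venous cells vary among themselves. Nr2f2-led cells, with at least 2 Nr2f2 UMIs and no Aplnr UMI, numbered 162 and 237, and Aplnr-led cells, with at least 2 Aplnr UMIs and no Nr2f2 UMI, numbered 307 and 355. A further 616 and 740 cells had UMIs of both genes, and 437 and 516 fell in none of these sets. Nr2f2-led cells had more transcript of sinusoidal genes, led by Stab2, Gata4, Oit3, Lyve1 and Mrc1, and less of Plvap, Cd34 and Sparcl1. They also had more of mesenchymal markers, with 6 of 8 tested called higher, and a higher sum of muscle markers. Of 11229 genes 447 (3.98%) were higher and 330 (2.94%) lower in Nr2f2-led cells, with a median log2 fold of -0.01. By the rule for named genes 148 were higher and 7 lower. Median depths were 4064.5 and 4263 UMIs in Nr2f2-led against 4413 and 4871 in Aplnr-led cells.

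Of the 11 sinusoidal genes tested 7 were higher and 1 lower in Nr2f2-led cells, with a median log2 fold of 2.05. The list was chosen with earlier results of these data known, so its count is a description and no independent support. Stab2 stood at 429 and 573 CPM in Nr2f2-led cells and at 64.7 and 98.8 in Aplnr-led cells, a log2 fold of 2.54 ± 0.10 (SE) with an adjusted p by edgeR of 1.16e-34. Gata4 was at 83.3 and 96.4 CPM against 5.45 and 14.6, a log2 fold of 3.02 ± 0.24 (SE) with an adjusted p by edgeR of 5.53e-17 that was 3.64 without MMPlow 2. Oit3 was at 68.5 and 75.6 CPM against 5.45 and 5.23, a log2 fold of 3.69 ± 0.28 (SE) with an adjusted p by edgeR of 7.44e-18. The Nr2f2-led libraries lay above the Aplnr-led ones in all 3 genes, where 43.8% of all 11229 genes tested were without overlap, higher or lower. Cells with UMIs of both genes lay between the sets, with Stab2 at 150.9 and 188.4 CPM, Gata4 at 29.3 and 24.9 and Oit3 at 24.1 and 23.8. Lyve1, a hyaluronan receptor of lymphatic and sinusoidal endothelium, was at 86.0 and 83.9 CPM against 7.49 and 15.2, a log2 fold of 2.79 ± 0.26 (SE). Mrc1 was at 107.5 and 123.0 CPM against 25.9 and 24.05, a log2 fold of 2.17 ± 0.17 (SE). The scavenger receptor gene Cd36 and the transcription factor gene Maf had log2 folds of 2.05 and 1.57, and Gpihbp1 was lower at -1.16 (edgeR adjusted p 0.0275), a call that DESeq2, thinning and the fit with no block each ended. That call was also lost in cells of 3000 to 6000 UMIs and in cells with no mesenchymal UMI.

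**Figure D4:**
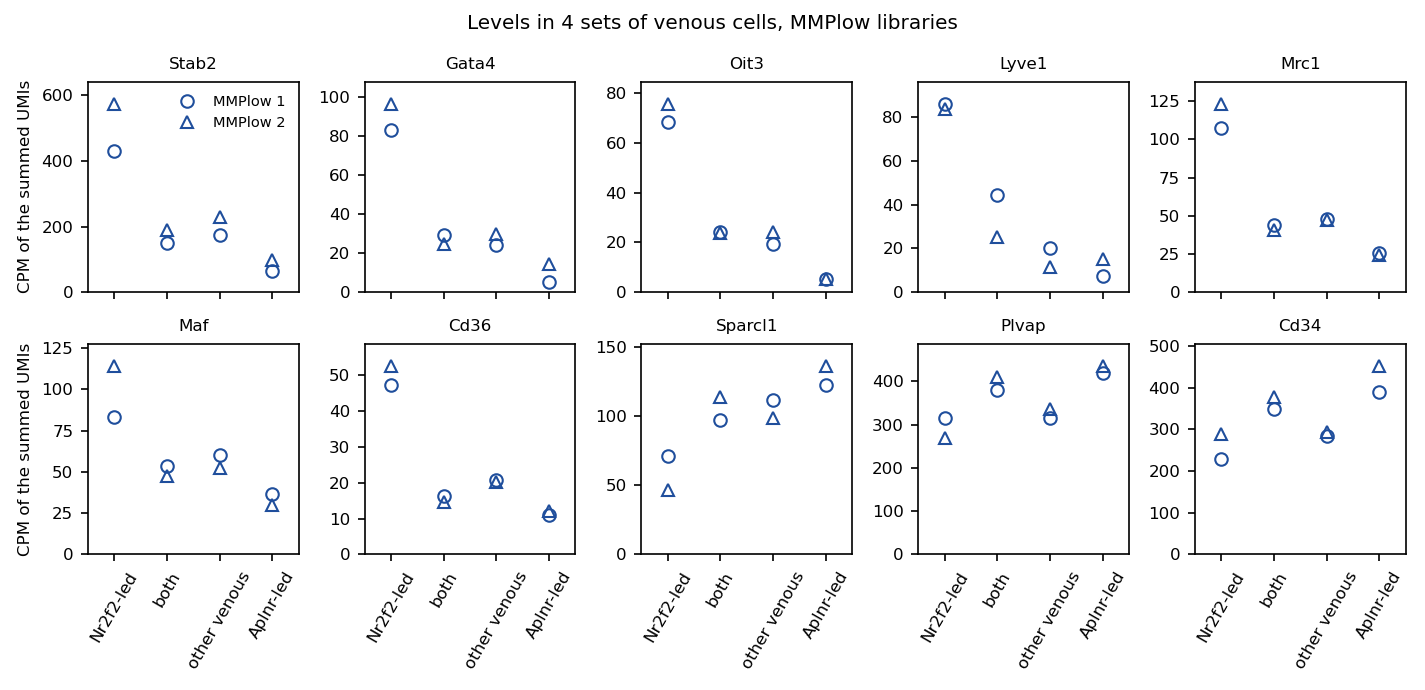
Levels in CPM of 10 genes in 4 disjoint sets of venous cells, Nr2f2-led, with UMIs of both genes, other, and Aplnr-led; each point is 1 MMPlow library. Stab2, Gata4, Oit3, Lyve1, Mrc1, Maf and Cd36 are highest in Nr2f2-led cells, with Stab2 at 429 and 573 CPM, and Sparcl1, Plvap and Cd34 are higher in Aplnr-led than in Nr2f2-led cells.

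The 12 genes looked up among those higher in Nr2f2-led cells were the 6 named by fold and 6 sinusoidal genes, and 8 had a promoter in the RefSeq table (GRCm38.p6). Because Nr2f2 encodes a nuclear receptor, the 250 bases before each start site were searched on both strands for AGGTCA, the core that many nuclear receptors bind. Of the 8 promoters 3 held it, beside 4607 of 32851 promoters in the table (14.0%). A match describes letters and not a bound site. The 3 are shown with the match in capitals. They are Stab2 on the minus strand at chr10:87007943-87008192, where the match begins 164 bases before the start, Ehd3 on the plus strand at chr17:73804591-73804840, at 222 bases, and Cd36 on the minus strand at chr5:17835897-17836146, at 228 bases and on the opposite strand of the gene.
Stab2: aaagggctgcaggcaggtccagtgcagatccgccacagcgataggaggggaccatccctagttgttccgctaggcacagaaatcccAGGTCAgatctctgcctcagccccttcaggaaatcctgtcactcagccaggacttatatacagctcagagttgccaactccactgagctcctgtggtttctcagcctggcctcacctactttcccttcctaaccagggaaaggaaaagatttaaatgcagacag
Ehd3: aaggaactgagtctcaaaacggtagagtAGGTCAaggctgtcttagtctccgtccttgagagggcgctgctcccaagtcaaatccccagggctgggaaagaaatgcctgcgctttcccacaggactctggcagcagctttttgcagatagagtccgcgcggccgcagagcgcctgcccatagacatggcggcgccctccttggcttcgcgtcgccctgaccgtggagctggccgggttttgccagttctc
Cd36: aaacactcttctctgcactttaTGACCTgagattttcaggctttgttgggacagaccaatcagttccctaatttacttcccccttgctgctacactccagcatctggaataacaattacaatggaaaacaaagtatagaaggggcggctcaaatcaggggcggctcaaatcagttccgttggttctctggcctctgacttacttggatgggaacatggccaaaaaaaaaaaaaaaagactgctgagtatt

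Ehd3, whose promoter is the second of these, stood at 107.5 and 118.0 CPM in Nr2f2-led cells against 12.9 and 9.93, a log2 fold of 3.27 ± 0.21 (SE) with an adjusted p by edgeR of 1.94e-21. Hs6st3, a heparan sulfate sulfotransferase gene, was at 86.0 and 65.7 CPM against 3.41 and 8.89, a log2 fold of 3.43 that was 2.69 without MMPlow 1 and 4.22 without MMPlow 2. A pair of further named genes rested on 3 UMIs in Aplnr-led cells. The BMP ligand gene Bmp6 had 61 UMIs against 3, a ratio of pooled CPM of 35.3 (exact 95% counting interval 11.52 to 175.9). Its fitted log2 fold was 4.999, and the estimate with the added count was 3.52 without MMPlow 1. Il1rapl1 had 42 against 3, a ratio of 24.3 (7.77 to 122.6). Its fitted log2 fold of 4.45 was 3.25 without MMPlow 1, and its call was lost in cells of 3000 to 6000 UMIs. The adhesion gene Negr1 had a log2 fold of 3.46 that was 2.57 without MMPlow 1, and its call was lost in cells with no mesenchymal UMI.

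BMP and TGF-beta genes were 7 higher and 1 lower of 22 tested in Nr2f2-led cells. Bmp2 stood at 29.6 and 28.3 CPM against 8.85 and 7.84, a log2 fold of 1.72 ± 0.34 (SE) with an adjusted p by edgeR of 0.00018. Smad6 was at 55.1 and 64.8 CPM against 11.6 and 14.6, a log2 fold of 2.11 ± 0.24 (SE) with an adjusted p by edgeR of 2.6e-10, although it was lower in venous than in arterial cells as a whole. Ephrins and Eph receptors were 4 higher and 1 lower of 12, with Epha3 at a log2 fold of 2.31 and Efna5 at 0.95. The calls for Bmp2 and Epha3 were lost in cells of 3000 to 6000 UMIs. Vein genes were 4 higher and 2 lower of 18, among them Dab2 (1.05), Slit3 (1.39, a call lost without the block, in cells with no mesenchymal UMI and in cells of 3000 to 6000 UMIs) and Vcam1, which had 29 UMIs against 4 and a pooled ratio of 12.6 (4.42 to 49.3). The fitted log2 fold of Vcam1, 3.51, was 2.51 without MMPlow 2.

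Genes higher in Aplnr-led cells were fewer and differed less. Sparcl1, a matrix-associated glycoprotein gene, stood at 71.2 and 46.5 CPM in Nr2f2-led cells against 122.6 and 135.9 in Aplnr-led cells, a log2 fold of -1.28 ± 0.16 (SE) with an adjusted p by edgeR of 7.63e-09. Rsad2, an interferon-induced antiviral gene, was at 8.06 and 8.31 CPM against 30.0 and 30.3, a log2 fold of -1.93 ± 0.33 (SE) with an adjusted p by edgeR of 1.3e-05, a call lost on thinning. Plvap was at 316 and 268 CPM against 419 and 434.9, a log2 fold of -0.64 ± 0.09 (SE). Cd34, a sialomucin of capillary and progenitor surfaces, was at 228 and 289.2 CPM against 390.3 and 451.1, a log2 fold of -0.75 ± 0.09 (SE) with an adjusted p by edgeR of 2.09e-10. Of 30 shared endothelial genes 9 were lower and 1 higher in Nr2f2-led cells. The matrix gene Sparc (-0.55) and the adrenomedullin co-receptor gene Ramp2 (-0.47) were lower as well. Cav1 (-0.95) and Klf2 (-0.93) were lower too, but both calls were lost on thinning and in cells of 3000 to 6000 UMIs, and that of Klf2 also with DESeq2. Madcam1, Zfp979 and Txnrd2, the other genes named by fold, had log2 folds of -1.14, -1.07 and -1.01 and lost their calls with DESeq2. Their calls were also lost without the library block, on thinning, in cells of 3000 to 6000 UMIs and in cells with no mesenchymal UMI. Zfp979 had -1.67 without MMPlow 2.

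After thinning every cell to 2000 UMIs, a Stab2 UMI was present in 25.9% and 29.1% of Nr2f2-led cells (40.1% and 33.8% before thinning) and in 8.79% and 9.01% of Aplnr-led cells (17.6% and 18.6%). Cells with UMIs of both genes had 16.7% and 17.0%, close to the 15.7% and 17.1% of all venous cells. Cells with neural markers, which should lack Stab2, had 3.10% and 1.48% after thinning (5.09% and 3.61% before, at median depths of 4115.5 and 4908.5 UMIs), below every venous set. At least 2 sinusoidal genes were detected after thinning in 30.9% and 31.2% of Nr2f2-led cells (50.6% and 51.1% before) and in 11.4% and 10.1% of Aplnr-led cells (34.9% and 34.1%). Arterial cells, at 11.7% and 7.58% after thinning, were close to Aplnr-led cells, and cells with neural markers had 4.20% and 3.77% (13.5% and 11.8% before).

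Markers of mesenchyme and muscle moved with this comparison. Summed mesenchymal markers were at 185.4 to 283.5 CPM in Nr2f2-led and 66.9 to 115.8 in Aplnr-led cells, and 6 of 8 tested were called higher, with a median log2 fold of 1.40. Col3a1 (1.15), Col1a2 (1.51) and Prrx1 (1.93) were among them, and Pdgfra had 1.93, or 0.84 without MMPlow 1 and 2.96 without MMPlow 2. The summed muscle markers were at 92.7 to 162.1 CPM against 19.9 to 26.6, with Acta2, smooth muscle actin, at a log2 fold of 1.52. Wt1, a transcription factor gene of mesothelium, had 20 UMIs against 5, a pooled ratio of 6.95 (2.53 to 23.7) and a fitted log2 fold of 2.69 that was 2.04 without MMPlow 2. DESeq2 ended the calls of Col1a2, Pdgfra, Prrx1 and Wt1 at log2 folds of 1.52, 2.05, 1.91 and 2.72. Thinning ended those of Col3a1, Pdgfra, Prrx1 and Acta2 at 0.78, 2.34, 1.97 and 1.20. The call of Wt1 was also lost with Scrublet marks left out and with the highest doublet scores left out. Those of Pdgfra, Prrx1 and Acta2 were lost in cells of 3000 to 6000 UMIs, and that of Acta2 in cells with no mesenchymal UMI. Neural markers were 2 higher and 1 lower of 5 tested, with a median log2 fold of 0.73 and sums of 231.1 to 273.5 CPM against 253.5 to 271.7. Megakaryocyte markers summed to 668.3 to 692.0 CPM against 605.5 to 621.5 with 0 of 8 called, and epithelial markers to 25.5 to 25.8 against 10.2 to 14.1, with Wt1 the 1 tested. Myeloid markers overlapped, at 518.7 to 551.9 CPM against 472.5 to 541.5 with 0 of 14 called. An alternative chosen after seeing the data took the venous cells with no mesenchymal UMI (1203 and 1412 cells). There 7 sinusoidal genes were higher and none lower, with a median log2 fold of 2.09. Over all 10635 genes tested there, 316 were called, 197 higher and 119 lower. These cells are a subset of those already compared, so the count is no second result. The part of mesenchymal RNA in the differences was not tested. In cells of 3000 to 6000 UMIs the sinusoidal count was also 7 and 0, with a median of 1.65, beside 129 higher and 52 lower of all 9536 genes tested. Hepatocyte markers summed to 26.9 to 29.1 CPM in Nr2f2-led and 32.7 to 40.8 in Aplnr-led cells, with 0 of 2 tested called by edgeR.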

How the data were processed

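Single CD31-positive AGM cells were captured with 10x Genomics chemistry (3' end, v3), per the labels' protocols, in 2 MMPlow and 2 MMPhigh libraries. The deposited matrices hold raw UMI counts per gene and barcode for 32285 features. They came from Cell Ranger 7.0.1 per the file headers, while the submitters' processing notes name Cell Ranger 2.1.1 and mm10. Barcodes with at least 2000 UMIs, 1000 genes and under 25% mitochondrial UMIs were kept, which left 16700, 19579, 4403 and 3486 cells from totals of 120168395, 102083810, 51800709 and 112739406 UMIs. Venous sums held 6971421 and 9502207 UMIs in MMPlow.

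The 8 classes were cut from rule genes, so they are ranges of transcript counts and not clusters. Counts were summed per class and MMPlow library and tested with edgeR 4.0.16 in R 4.3.3 (TMM, filterByExpr, robust quasi-likelihood test, library block, 16 sums; 8 sums in 4 sets for Nr2f2-led against Aplnr-led cells), with Benjamini-Hochberg adjustment at 0.05. SE is the log2 fold over the square root of F. Pooled ratios carry exact counting intervals. Scrublet in scanpy 1.11.5 marked 996 of 19579 cells of MMPlow 2 and 2 of 16700 of MMPlow 1, where it is taken not to have worked, so doublets were kept and their removal was an alternative. Further alternatives were DESeq2 1.42.0, other scaling and filters, stricter cell rules, thinning to 2000 UMIs and leaving out libraries. With a library left out no spread could be fitted, and log2 folds were differences of log2 CPM with a small count added. Shares were tested by exact permutation.

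Genes were named by rule: outside the rule genes, called, at a log2 fold of at least 1 and 20 CPM, in the same direction in both libraries, the 12 largest each way against arterial cells and 6 each way otherwise, plus up to 6 examples per list. Predicted genes were counted and not named, and some results are not reported here. Members and lists were chosen with earlier results of these data known. The scripts were tested on simulated data. Promoters are from RefSeq, GRCm38.p6.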

Additional observations from a re-analysis of the deposited data

How the results depend on the processing

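With every cell thinned to 2000 UMIs before the rule, the difference in the venous share of endothelial cells reversed to 0.549 percentage points. With at least 3 venous UMIs it was -2.43, and the difference in the share of retained cells, -9.22, became -4.78 and, on thinning, -4.67. Leaving out 1 library at a time gave -17.6 to -4.08 points for the share of endothelial cells and -9.38 to -9.06 for the share of retained cells. The mitochondrial share of MMPlow venous cells was then 3.02% to 3.70%. The 3233 genes called between venous and arterial cells became 1852 without the library block, 1193 in cells of 3000 to 6000 UMIs and 1964 on thinning. The 830 called against Prox1-positive cells became 525 and 444 under the last 2 settings. The 2245 called against Tll1-type cells became 619 without the block, 1188 with DESeq2 and 756 in cells of 3000 to 6000 UMIs. The 777 called between Nr2f2-led and Aplnr-led cells became 366, 231 and 181 in the same order, 258 on thinning and 316 in cells with no mesenchymal UMI. The alternatives on cells of 3000 to 6000 UMIs, on mesenchymal UMIs and on the highest doublet scores were chosen after seeing the data. They and thinning use fewer cells or UMIs, and the cause of the other changes was not tested. With no filter on low genes the split of higher and lower calls was 1817 and 1343 against arterial cells and 726 and 354 against Prox1-positive cells, where the median log2 fold of all genes moved to 0.13. DESeq2 gave 263 and 477 for the latter. Of 164 gene results followed, 21 moved by over 1.5 times in fold without 1 library. Folds without a library are differences of log2 CPM with a small count added, so part of these moves can come from the change of estimate. With libraries paired by replicate number (replicate block, chosen after seeing the data), the mean differences in share were as before, -9.22 and -10.8 points, each with an exact sign-flip p of 0.5, the smallest that 2 pairs allow. The MMPhigh libraries held 1 and 3 venous cells, so the test between fractions within venous cells and its alternatives were not run.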
